A study of Bos taurus with 6 samples.

Results

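The genes described here belong to fibroblast growth factor (FGF) signalling, its mitogen-activated protein kinase (MAPK) cascade and the immediate early genes that the cascade switches on. They were the rows of the deposited expression table whose gene symbol matched a list of 38 names. All 38 were found among 15314 distinct symbols, and 35 of them averaged 10 or more over the 6 libraries and were tested. The list holds 5 ligands, 4 receptors, 6 adaptor or exchange proteins, 7 RAS and kinase genes, 6 feedback inhibitors, 2 ETS transcription factors and 8 immediate early genes.

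An FGF ligand binds its receptor tyrosine kinase together with heparan sulphate. The receptor then phosphorylates the docking protein FRS2, which recruits GRB2 and SOS1 to load RAS with GTP, and RAS starts a chain of kinases that runs through RAF and MEK to ERK. ERK phosphorylates transcription factors, immediate early genes are then transcribed without new protein synthesis, and Sprouty, SPRED and DUSP proteins damp the signal. In the mouse blastocyst FGF4 from epiblast precursors directs neighbouring cells to the primitive endoderm, and in cattle added FGF4 favours the equivalent layer, the hypoblast. The activity of these proteins is set largely by phosphorylation, which RNA levels do not show.

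The libraries hold polyadenylated RNA of cattle embryos that had reached the late morula stage, on day 6 after in vitro fertilization. The embryos carried a small interfering RNA (siRNA) against NOTCH1, one against RBPJ, or a nonspecific one (the control), so that all 3 groups held an siRNA. NOTCH1 is a receptor of the NOTCH pathway and RBPJ the DNA-binding protein through which NOTCH receptors act. Each group had 2 libraries of 15 pooled embryos, and messenger RNA of GFP and RFP had been added to every pool before extraction. The design asks how the transcriptome of the late morula responds to the knockdown of each NOTCH component.

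Library totals ran from 10365695 to 10815554 scaled read counts, which are read counts divided by the authors' scaling factor for each library. Judged from the smallest values, 1 read was worth about 0.77 scaled read counts in RBPJ knockdown replicate 1, the deepest library, and 1.02 to 1.09 in the other 5. RBPJ stood at 121 and 94.5 in its knockdown, against 447 and 391 in the control (log2 fold change -1.96, limma adjusted p = 0.00143). NOTCH1 stood at 48.0 and 49.5 in its knockdown, against 69.6 and 140 in the control (limma adjusted p = 0.634), and at 50.0 and 125 in the RBPJ knockdown. NOTCH1 itself was thus not called in the NOTCH1 knockdown. Of 10 early embryo markers listed, 9 were measured, and SOX2 had no row. All 9, among them POU5F1, CDX2, GATA6 and the keratins KRT8 and KRT18, averaged 10 or more. Together they summed to 57111 and 51079 in the NOTCH1 knockdown (replicates 1 and 2) and 53376 and 41455 in the RBPJ knockdown. In the control they summed to 44523 and 43643. Markers of cumulus, granulosa and stromal cells summed to 1451 and 1168 in the NOTCH1 knockdown and 1254 and 1067 in the RBPJ knockdown. In the control they summed to 1403 and 1235. Of these 12 markers 6 averaged 10 or more: PTGS2 574, COL1A1 316, COL1A2 141, CYP19A1 136, DCN 49.0 and AMH 24.0. PTGS2 was the highest of them in every library. HAS2, TNFAIP6, FOXL2 and COL3A1 averaged less than 10, and PTX3 and FSHR had no row. Of 5 blood and immune markers, HBA and LYZ reached that average and PTPRC, HBB and CD74 did not. HBA, an alpha globin gene, carried nearly all of their sum, with 1067 and 1380 in the NOTCH1 knockdown, 1052 and 1366 in the RBPJ knockdown and 976 and 1344 in the control, while HBB averaged 3.27, PTPRC 4.49 and CD74 4.55 over the 6 libraries. Whether cumulus, granulosa, stromal or blood cells were present, and what part they had in the values below, was not tested.

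No gene of the FGF, MAPK and immediate early list passed the test in any comparison. Under limma, with a Benjamini-Hochberg adjusted p below 0.05 over 12070 tested genes, 0 of 35 passed in the NOTCH1 knockdown against the control, where 0% of all tested genes did. In the RBPJ knockdown against the control 0 of 35 passed, where 0.00829% of tested genes did. Between the NOTCH1 and the RBPJ knockdown 0 of 35 passed, again against 0.00829%, and in both comparisons the single gene called was RBPJ. An unadjusted p below 0.05 was found for 1 member in the NOTCH1 knockdown (background 7.29%), 3 in the RBPJ knockdown (4.34%) and 1 between the knockdowns (3.64%). These were FGFR4 in the NOTCH1 knockdown, FGFR3, DUSP4 and JUN in the RBPJ knockdown, and FGFR3 between the knockdowns. Because the same 2 control libraries serve both knockdowns, the values of those comparisons are not independent.

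Most members had 95% intervals inside 2-fold, though these rest on 2 libraries a group, whose spread may be technical. The 95% interval of the log2 fold change lay within -1 to 1, which is a change of under 2-fold, for 33 of 35 members in the NOTCH1 knockdown, against 78.1% of tested genes. That held for 32 members in the RBPJ knockdown (79.8% of tested genes) and for 31 members between the knockdowns (79.1%). The shares of tested genes were not matched to the members for expression level. The exceptions were ETV5 and FOSL1 in all 3 comparisons, DUSP4 in the RBPJ knockdown and between the knockdowns, and FGF4 between the knockdowns. The median log2 fold change over the 35 members was 0.0076 in the NOTCH1 knockdown, 0.051 in the RBPJ knockdown and -0.058 between the knockdowns, beside medians over all tested genes of 0.0059, -0.0018 and 0.011.

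**Figure D1:**
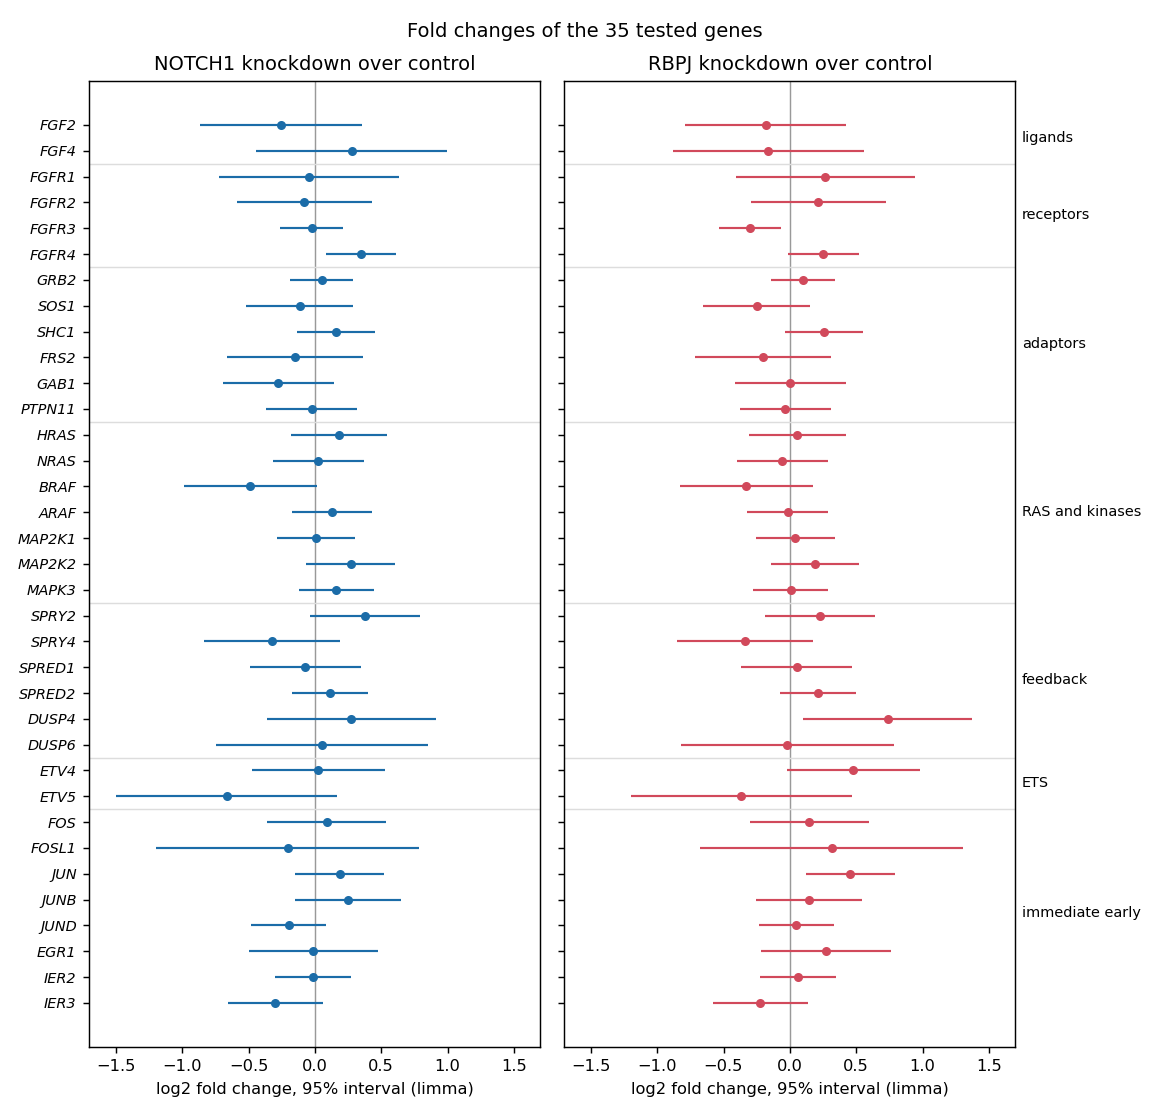
Log2 fold changes of the 35 tested genes (points) with 95% intervals from limma (lines), for the NOTCH1 knockdown over the control (left) and the RBPJ knockdown over the control (right), ordered by role. No gene passed at an adjusted p below 0.05, and the interval lay within -1 to 1 for 33 genes on the left and 32 on the right.

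Of the ligands, only FGF2 and FGF4 reached a mean of 10. FGF4, the ligand of the epiblast lineage in mouse, had scaled read counts of 78.4 and 59.4 in the NOTCH1 knockdown, 40.0 and 62.8 in the RBPJ knockdown and 67.9 and 46.5 in the control. All 3 groups overlapped, and the libraries within each group were farther apart than the group means. Its log2 fold change was 0.28 ± 0.33 (standard error, SE) in the NOTCH1 knockdown (limma adjusted p = 0.899) and -0.16 in the RBPJ knockdown (limma adjusted p = 0.995). FGF2, a ligand that binds several FGF receptors, had 68.5 and 68.9 in the NOTCH1 knockdown, 78.4 and 66.7 in the RBPJ knockdown and 101 and 66.6 in the control. Control replicate 1 was the highest library, and the other control library was the lowest. In the table FGF2 cannot be told from NUDT6 where their transcripts overlap, since the counting is not stated to use strand.

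The other ligands were near the limit of detection. FGF1 was listed at 0 in all 4 knockdown libraries, against 4.22 and 3.28 in the control, which is a handful of reads. FGF8 ranged from 3.06 in the NOTCH1 knockdown to 13.4 in the RBPJ knockdown, with 12.7 and 3.26 in the control. FGF10 was listed at 0 in both NOTCH1 knockdown libraries, at 1.54 and 3.08 in the RBPJ knockdown and at 2.11 and 1.09 in the control. No fold change is given for these 3 genes. Their values show that the transcripts were barely sampled at this depth, not that they were absent.

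Receptors gave the smallest p values of the list in the NOTCH1 knockdown and between the knockdowns. FGFR4 had 4654 and 4806 scaled read counts in the NOTCH1 knockdown, 4109 and 4768 in the RBPJ knockdown and 3323 and 4150 in the control. Both NOTCH1 knockdown libraries lay above both control libraries, while RBPJ knockdown replicate 1 lay just under the higher control. In the NOTCH1 knockdown the log2 fold change was 0.35 ± 0.12 (SE), with a 95% interval of 0.084 to 0.61 (limma adjusted p = 0.557). The value without control replicate 1 was 0.19, and without control replicate 2 it was 0.51. In the RBPJ knockdown the log2 fold change of FGFR4 was 0.25 (limma adjusted p = 0.983). In bulk RNA of whole embryos, a change in the number of cells that express a gene and a change in RNA per cell cannot be told apart.

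FGFR3 had 1561 and 1554 in the RBPJ knockdown, below the NOTCH1 knockdown at 2006 and 1772 and the control at 1977 and 1860. The RBPJ knockdown libraries were close to each other, and the NOTCH1 knockdown and the control overlapped. Against the control, the log2 fold change in the RBPJ knockdown was -0.30 ± 0.11 (SE) (limma adjusted p = 0.983, unadjusted p = 0.0168). The NOTCH1 knockdown minus the RBPJ knockdown was 0.28 (limma adjusted p = 0.999, unadjusted p = 0.0254), while the NOTCH1 knockdown against the control was at -0.024. Omitting any one library kept the RBPJ knockdown value between -0.34 and -0.26.

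FGFR1 and FGFR2, through which FGF4 acts in the mouse blastocyst, had wider intervals. FGFR2 had 91.9 and 84.1 in the NOTCH1 knockdown, 98.6 and 119 in the RBPJ knockdown and 89.0 and 97.2 in the control. The RBPJ knockdown libraries lay above the others, by a small margin for replicate 1. Its log2 fold change there was 0.22 ± 0.23 (SE) (limma adjusted p = 0.989). FGFR1 had 64.1 and 71.1 in the NOTCH1 knockdown, 66.8 and 106 in the RBPJ knockdown and 55.7 and 86.9 in the control. All of its groups overlapped.

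**Figure D2:**
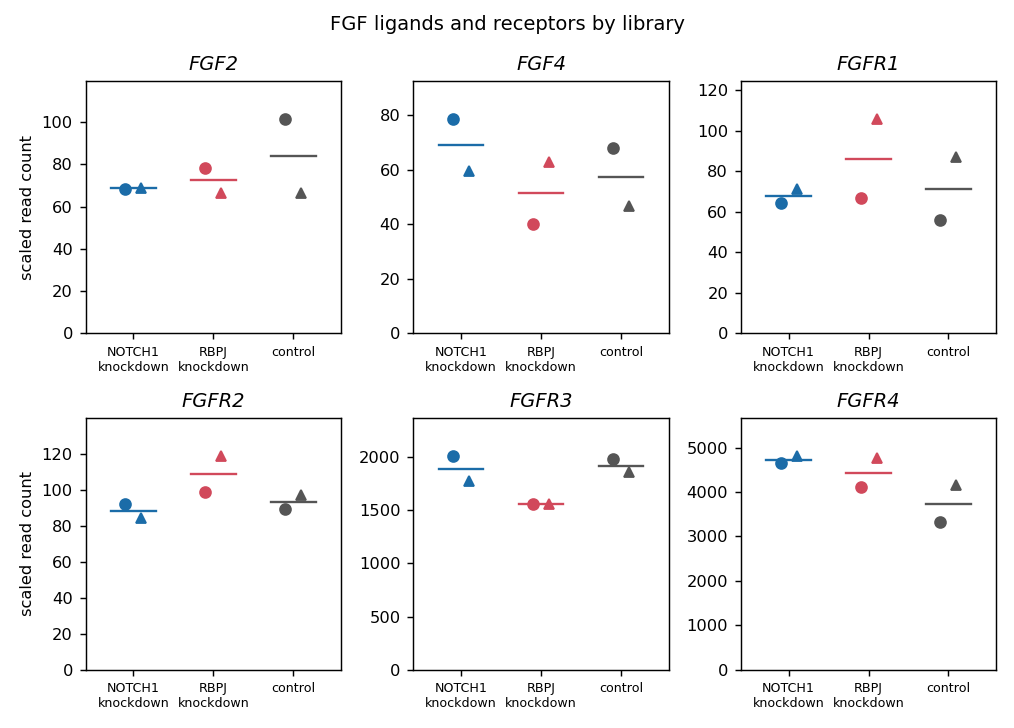
Scaled read counts (y axis, from 0) of FGF2, FGF4 and the 4 FGF receptors in each library of the 3 groups (x axis); circles are replicate 1, triangles replicate 2 and bars the mean of 2 libraries. FGFR3 stood at 1561 and 1554 in the RBPJ knockdown, below the other 4 libraries, and FGFR4 at 4654 and 4806 in the NOTCH1 knockdown, above both control libraries.

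The adaptors had small fold changes, none of which passed. GRB2, which links the receptor complex to SOS1, had 1278 and 1280 in the NOTCH1 knockdown, 1337 and 1306 in the RBPJ knockdown and 1174 and 1298 in the control. The log2 fold change was 0.051 in the NOTCH1 knockdown and 0.098 in the RBPJ knockdown, each ± 0.11 (SE) (limma adjusted p = 0.954 and 0.989). SOS1, the exchange factor for RAS, had 276 and 244 in the NOTCH1 knockdown, 277 and 202 in the RBPJ knockdown and 282 and 281 in the control. The 4 knockdown libraries lay below the control, but NOTCH1 knockdown replicate 1 and RBPJ knockdown replicate 1 did so by only a few counts. GAB1, a docking protein, had 165 and 178 in the NOTCH1 knockdown, 225 and 194 in the RBPJ knockdown and 234 and 186 in the control. NOTCH1 knockdown libraries were the lowest for GAB1, at a log2 fold change of -0.28 ± 0.19 (SE) (limma adjusted p = 0.801). It was -0.11 without control replicate 1 and -0.44 without control replicate 2.

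SHC1, an adaptor of many receptor tyrosine kinases, had 988 and 1190 in the NOTCH1 knockdown, 1130 and 1192 in the RBPJ knockdown and 885 and 1065 in the control. The RBPJ knockdown did not overlap the control, with a log2 fold change of 0.26 ± 0.13 (SE) (limma adjusted p = 0.983). It was 0.12 without control replicate 1 and 0.39 without control replicate 2. FRS2 had 92.0 and 124 in the NOTCH1 knockdown, 96.1 and 110 in the RBPJ knockdown and 125 and 112 in the control. PTPN11, the phosphatase SHP2 that supports RAS activation, had 787 and 794 in the NOTCH1 knockdown, 877 and 701 in the RBPJ knockdown and 928 and 696 in the control. Its control libraries were the farthest apart and enclosed the other 4.

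Among RAS and kinase genes, BRAF had the most negative fold change in both knockdowns. BRAF, a RAF kinase that phosphorylates MEK, had 104 and 85.2 in the NOTCH1 knockdown, 116 and 95.8 in the RBPJ knockdown and 137 and 128 in the control. The 4 knockdown libraries lay below both control libraries. The log2 fold change was -0.49 ± 0.23 (SE) in the NOTCH1 knockdown (limma adjusted p = 0.693) and -0.33 ± 0.23 (SE) in the RBPJ knockdown (limma adjusted p = 0.983). ARAF, a second RAF kinase, had 2243 and 2253 in the NOTCH1 knockdown, 1787 and 2311 in the RBPJ knockdown and 1841 and 2295 in the control, so its groups overlapped.

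The MEK genes overlapped the control in both knockdowns. MAP2K1 (MEK1) had 553 and 641 in the NOTCH1 knockdown, 570 and 651 in the RBPJ knockdown and 587 and 597 in the control. MAP2K2 (MEK2) had 1550 and 1526 in the NOTCH1 knockdown, 1410 and 1506 in the RBPJ knockdown and 1055 and 1543 in the control, where replicate 1 was the lowest of all. MAPK3 (ERK1) had 566 and 577 in the NOTCH1 knockdown, 524 and 501 in the RBPJ knockdown and 531 and 490 in the control. For MAPK3 the NOTCH1 knockdown libraries lay above the other 4, at a log2 fold change of 0.16 with a 95% interval of -0.12 to 0.44 (limma adjusted p = 0.840). HRAS had 384 and 330 in the NOTCH1 knockdown, 291 and 367 in the RBPJ knockdown and 308 and 320 in the control. NRAS had 897 and 725 in the NOTCH1 knockdown, 798 and 725 in the RBPJ knockdown and 912 and 687 in the control. HRAS and NRAS are RAS GTPases, and HRAS was higher in both NOTCH1 knockdown libraries than in the control by a margin smaller than the gap between those 2 libraries.

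Feedback inhibitors included the largest positive fold change of the list, that of DUSP4 in the RBPJ knockdown. DUSP4, a nuclear phosphatase of MAP kinases, had 53.1 and 49.5 in the NOTCH1 knockdown, 63.0 and 80.1 in the RBPJ knockdown and 45.4 and 39.3 in the control. The 3 groups did not overlap, with the RBPJ knockdown highest and the control lowest. In the RBPJ knockdown the fold change was 1.67, a log2 fold change of 0.74 ± 0.29 (SE), with a 95% interval of 0.098 to 1.38 (limma adjusted p = 0.983, unadjusted p = 0.0272). In the NOTCH1 knockdown the log2 fold change was 0.27 (limma adjusted p = 0.880), and the NOTCH1 knockdown minus the RBPJ knockdown was -0.46 (limma adjusted p = 0.999). At these low counts the estimate for the RBPJ knockdown ran from 0.57 to 0.91 over omitted libraries.

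DUSP6, the cytoplasmic ERK phosphatase often read as a measure of FGF signalling, had 28.6 and 33.4 in the NOTCH1 knockdown, 30.0 and 28.7 in the RBPJ knockdown and 25.4 and 34.9 in the control. The control libraries enclosed all knockdown libraries. The 95% interval of its log2 fold change ran from -0.75 to 0.85 in the NOTCH1 knockdown and from -0.82 to 0.78 in the RBPJ knockdown. The fit did not place the change more narrowly.

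Sprouty and SPRED genes went both ways. SPRY2 had 327 and 253 in the NOTCH1 knockdown, 284 and 236 in the RBPJ knockdown and 202 and 243 in the control. The NOTCH1 knockdown libraries lay above the control, with a log2 fold change of 0.38 ± 0.19 (SE) (limma adjusted p = 0.718). It was 0.19 without NOTCH1 knockdown replicate 1 and 0.56 without NOTCH1 knockdown replicate 2. SPRY4 had 185 and 135 in the NOTCH1 knockdown, 159 and 154 in the RBPJ knockdown and 162 and 242 in the control. Control replicate 2 was the highest library for SPRY4, and without it the log2 fold change in the NOTCH1 knockdown was -0.035 in place of -0.32. SPRED2, which restrains RAF activation, had 650 and 561 in the NOTCH1 knockdown, 650 and 642 in the RBPJ knockdown and 553 and 562 in the control. Both RBPJ knockdown libraries lay above the control, at a log2 fold change of 0.21 ± 0.13 (SE) (limma adjusted p = 0.983). SPRED1, of the same family, had 316 and 290 in the NOTCH1 knockdown, 352 and 308 in the RBPJ knockdown and 385 and 262 in the control, with complete overlap.

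The ETS factors ETV4 and ETV5 are transcribed downstream of FGF signalling in many vertebrate tissues. ETV4 had 84.8 and 108 in the NOTCH1 knockdown, 136 and 126 in the RBPJ knockdown and 89.8 and 98.1 in the control. The RBPJ knockdown libraries lay above the other 4, while the NOTCH1 knockdown enclosed the control. Its log2 fold change was 0.48 ± 0.23 (SE) in the RBPJ knockdown (limma adjusted p = 0.983) and 0.026 in the NOTCH1 knockdown (limma adjusted p = 0.988).

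ETV5 had 28.6 and 71.1 in the NOTCH1 knockdown, 56.1 and 55.4 in the RBPJ knockdown and 65.5 and 79.7 in the control. NOTCH1 knockdown replicate 1 stood apart from the other 5 libraries. The log2 fold change in the NOTCH1 knockdown, -0.66 ± 0.38 (SE) (limma adjusted p = 0.761), rested on that library and was -0.023 without it. The RBPJ knockdown libraries lay below the control for ETV5, at -0.37 ± 0.38 (SE) (limma adjusted p = 0.989).

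**Figure D3:**
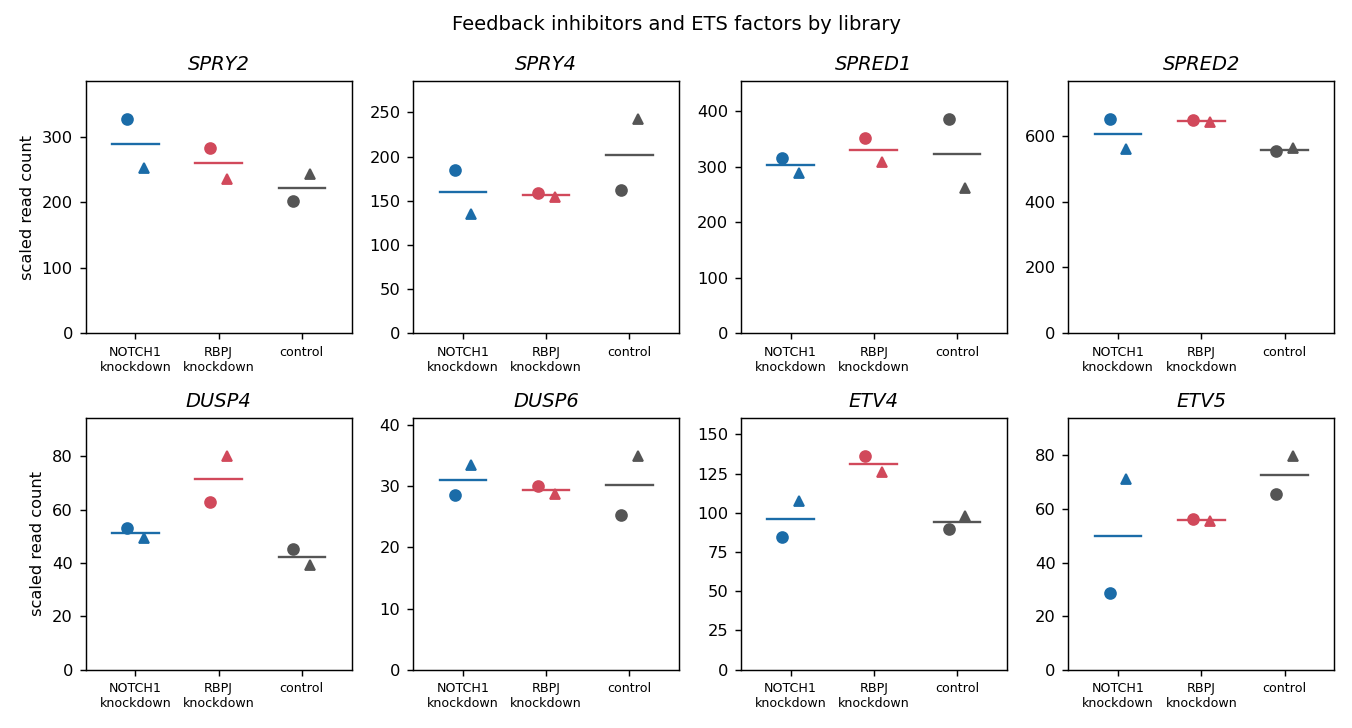
Scaled read counts (y axis, from 0) of 6 feedback inhibitors and 2 ETS factors in each library of the 3 groups (x axis); circles are replicate 1, triangles replicate 2 and bars the mean of 2 libraries. DUSP4 stood at 63.0 and 80.1 and ETV4 at 136 and 126 in the RBPJ knockdown, above the other 4 libraries, and ETV5 at 28.6 in replicate 1 of the NOTCH1 knockdown.

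The immediate early genes encode transcription factors and short-lived regulators. JUN, a subunit of the AP-1 factor, had 548 and 600 in the NOTCH1 knockdown, 610 and 782 in the RBPJ knockdown and 462 and 548 in the control. The RBPJ knockdown libraries lay above the other 4, and the NOTCH1 knockdown touched the higher control library. In the RBPJ knockdown the log2 fold change was 0.46 ± 0.15 (SE), with a 95% interval of 0.12 to 0.79, a fold change of 1.37 (limma adjusted p = 0.983, unadjusted p = 0.0119). It ran from 0.28 to 0.64 over omitted libraries. In the NOTCH1 knockdown the log2 fold change of JUN was 0.19 (limma adjusted p = 0.844), and the NOTCH1 knockdown minus the RBPJ knockdown was -0.27 (limma adjusted p = 0.999).

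The other AP-1 genes overlapped between groups. JUNB had 642 and 863 in the NOTCH1 knockdown, 610 and 785 in the RBPJ knockdown and 543 and 719 in the control. JUND had 1624 and 1315 in the NOTCH1 knockdown, 1624 and 1851 in the RBPJ knockdown and 1582 and 1773 in the control. FOS, the partner of JUN proteins in AP-1, had 172 and 232 in the NOTCH1 knockdown, 207 and 208 in the RBPJ knockdown and 166 and 212 in the control. The log2 fold change of FOS was 0.089 ± 0.21 (SE) in the NOTCH1 knockdown and 0.15 ± 0.21 (SE) in the RBPJ knockdown (limma adjusted p = 0.955 and 0.995). FOSL1 had 22.5 and 34.5 in the NOTCH1 knockdown, 30.0 and 54.4 in the RBPJ knockdown and 47.5 and 21.8 in the control. The control libraries of FOSL1 differed by more than any 2 group means, and its fold change turned sign with the control library that was left out.

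EGR1, a zinc finger factor induced by ERK, had 752 and 1278 in the NOTCH1 knockdown, 1098 and 1299 in the RBPJ knockdown and 819 and 1193 in the control. All groups overlapped, at log2 fold changes of -0.012 ± 0.22 (SE) in the NOTCH1 knockdown and 0.27 ± 0.22 (SE) in the RBPJ knockdown (limma adjusted p = 0.997 and 0.983). Without control replicate 1 the value in the RBPJ knockdown was 0.0015, and without control replicate 2 it was 0.54. In the NOTCH1 knockdown it ran from -0.39 without replicate 2 of that group to 0.37 without its replicate 1. IER2 had 1066 and 1034 in the NOTCH1 knockdown, 1049 and 1173 in the RBPJ knockdown and 948 and 1188 in the control, where replicates 1 and 2 enclosed the other libraries. IER3, an inhibitor of apoptosis among its roles, had 1131 and 1220 in the NOTCH1 knockdown, 1025 and 1494 in the RBPJ knockdown and 1309 and 1591 in the control. The NOTCH1 knockdown libraries lay below the control, at a log2 fold change of -0.30 ± 0.16 (SE) (limma adjusted p = 0.754). It was -0.44 without control replicate 1 and -0.16 without control replicate 2.

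**Figure D4:**
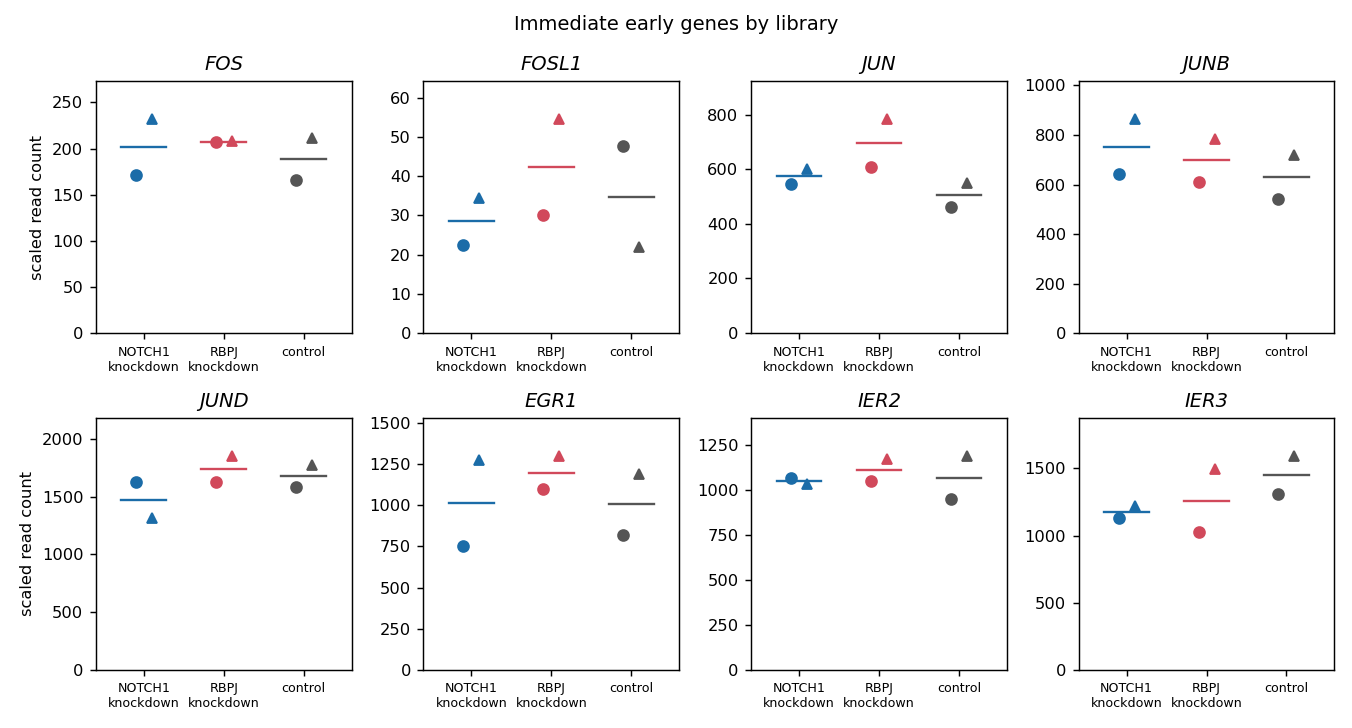
Scaled read counts (y axis, from 0) of the 8 immediate early genes in each library of the 3 groups (x axis); circles are replicate 1, triangles replicate 2 and bars the mean of 2 libraries. JUN stood at 610 and 782 in the RBPJ knockdown, above the other 4 libraries, while EGR1 ran from 752 to 1278 within the NOTCH1 knockdown.

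With 2 libraries against 2, complete separation from the control was common among all tested genes. The share of members that separated differed from that background by only a few genes. It was lower in the NOTCH1 knockdown and higher in the RBPJ knockdown, and neither difference was tested. In the NOTCH1 knockdown 5 members lay wholly above the control (FGFR4, HRAS, MAPK3, SPRY2 and DUSP4), where 18.6% of tested genes did. Another 4 lay wholly below it (SOS1, GAB1, BRAF and IER3), where 17.2% of tested genes did. These 9 are 25.7% of the 35 members, against 35.9% of all tested genes. In the RBPJ knockdown 7 lay wholly above the control (FGFR2, GRB2, SHC1, SPRED2, DUSP4, ETV4 and JUN; background 15.3%). A further 6 lay wholly below (FGFR3, SOS1, FRS2, BRAF, SPRY4 and ETV5; background 16.8%), which makes 13 of 35, or 37.1%, against 32.1%. Between the knockdowns 3 lay higher in the NOTCH1 knockdown (FGFR3, MAP2K2 and MAPK3; background 17.5%) and 6 lower (FGFR2, GRB2, GAB1, DUSP4, ETV4 and JUN; background 15.5%).

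Signs were mixed within most roles. RAS and kinase genes had a median log2 fold change of 0.13 in the NOTCH1 knockdown, which was -0.0039 without control replicate 1, and of 0.0049 in the RBPJ knockdown. Feedback inhibitors had medians of 0.084 and 0.13 in the NOTCH1 and RBPJ knockdowns, with 4 of 6 positive in each, and the RBPJ knockdown value was 0.023 without RBPJ knockdown replicate 1. Immediate early genes had medians of -0.014 in the NOTCH1 knockdown and 0.15 in the RBPJ knockdown, with 3 and 7 of 8 positive. The count in the RBPJ knockdown rested on single libraries: it was 3 of 8, with a median of -0.030, without control replicate 1, and 3 of 8, with a median of -0.026, without RBPJ knockdown replicate 2. In the NOTCH1 knockdown the median ran from -0.13 without control replicate 1 to 0.20 without control replicate 2. Between the knockdowns 1 of the 8 immediate early genes, JUNB, was positive, and 0 to 3 were when a library was omitted. Over the 35 members, the median deviation of a library from the mean of all 6 was lowest in control replicate 1, at -0.11 on the log2 scale, and highest in RBPJ knockdown replicate 2, at 0.094. Over all tested genes 51.1% were positive in the NOTCH1 knockdown, 49.7% in the RBPJ knockdown and 52.7% between the knockdowns.

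The spread between libraries of a group differed among the members. The within-group standard deviation on the log2 scale had a median of 0.20 over the 35 members and 0.18 over all tested genes. It was 0.24 for immediate early genes and 0.14 for receptors. At an average of 100 or more the median was 0.19 over 27 members and 0.14 over 8451 genes. EGR1 had 0.39, and 0.509% of the 1573 genes within 0.5 log2 units of its mean had more. JUNB at 0.28 and IER3 at 0.25 were exceeded by 4.25% and 4.6% of genes of similar level. For EGR1, JUNB and IER3 replicate 2 lay above replicate 1 in all 3 groups. Part of their spread was thus a difference that the groups shared, which a fit without the replicate number counts as spread. At the other end MAPK3 had 0.055, GRB2 0.060 and FGFR3 0.081. The standard errors of the fit draw on genes of similar level as well as on a gene's own spread, and so did not follow these values: EGR1 had a standard error of 0.22 and DUSP6, with a standard deviation of 0.20, had 0.37.

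**Figure D5:**
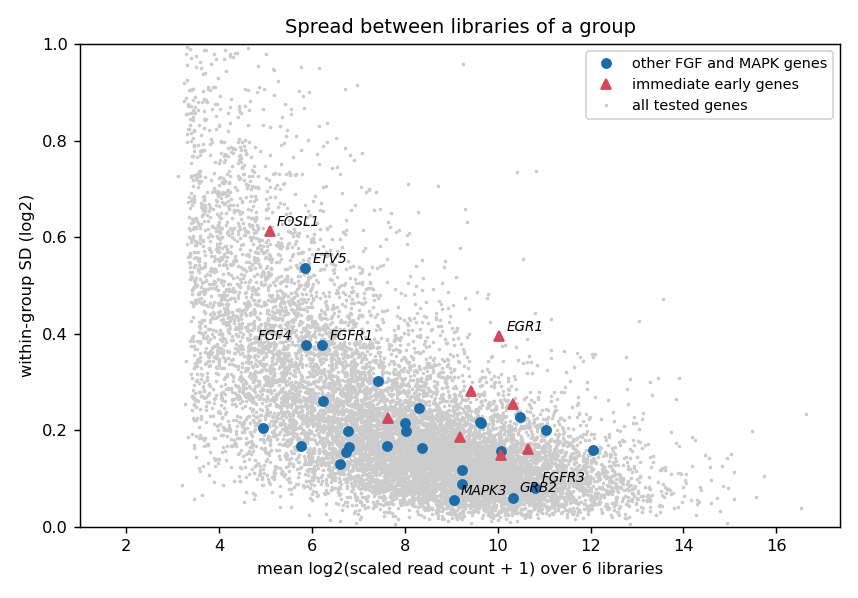
Within-group standard deviation on the log2 scale (y axis, cut at 1, above which 86 of 12070 tested genes lie) against the mean log2(scaled read count + 1) over the 6 libraries (x axis), for immediate early genes (triangles), the other FGF and MAPK genes (circles) and all tested genes (grey). EGR1 stood at 0.39, above nearly all genes of its level, and MAPK3 at 0.055.

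A further 97 genes of the pathway were listed by role, and 74 of them were tested. None passed: 0 of 74 under limma in each of the 3 comparisons, with 9 at an unadjusted p below 0.05 in the NOTCH1 knockdown (12.2%, against 7.29% of all tested genes). In the RBPJ knockdown 4 had such a p (5.41%, against 4.34%), and between the knockdowns 3 did (4.05%, against 3.64%). Among other receptors KIT, the receptor of stem cell factor, had 1022 and 1024 in the NOTCH1 knockdown, 1110 and 906 in the RBPJ knockdown and 805 and 702 in the control. All 4 knockdown libraries lay above the control, at log2 fold changes of 0.44 in the NOTCH1 knockdown (limma adjusted p = 0.466) and 0.41 in the RBPJ knockdown (limma adjusted p = 0.983). ERBB2, a partner of EGF family receptors, had 2960 and 2811 in the NOTCH1 knockdown, against 2126 and 2474 in the control. Its log2 fold change was 0.33 ± 0.11 (SE) (limma adjusted p = 0.509). EGFR, the EGF receptor, had 375 and 317 in the NOTCH1 knockdown and 277 and 242 in the RBPJ knockdown (log2 difference 0.41, limma adjusted p = 0.999).

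Of 17 other FGF genes listed, 5 were tested. FGF12, an intracellular member of the family, had 25.9 and 22.4 in the NOTCH1 knockdown, 22.8 and 29.5 in the RBPJ knockdown and 8.36 and 15.1 in the control. The knockdown libraries all lay above the control at these low counts, with log2 fold changes of 1.03 in the NOTCH1 knockdown (limma adjusted p = 0.660) and 1.13 in the RBPJ knockdown (limma adjusted p = 0.983), each ± 0.46 (SE). FGF13, also intracellular, had 84.8 and 100 in the NOTCH1 knockdown, 95.3 and 81.1 in the RBPJ knockdown and 60.2 and 67.6 in the control.

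Of 23 other adaptor, RAS and kinase genes, 22 were tested. MAPK7 (ERK5) had 1009 and 1036 in the NOTCH1 knockdown, 1022 and 987 in the RBPJ knockdown and 699 and 933 in the control. SHOC2 is a scaffold that helps activate RAF. It had 194 and 163 in the NOTCH1 knockdown, 207 and 208 in the RBPJ knockdown and 253 and 228 in the control. The log2 fold changes in the NOTCH1 knockdown were 0.34 for MAPK7 and -0.43 for SHOC2 (limma adjusted p = 0.634 for both). In the RBPJ knockdown they were 0.31 for MAPK7 and -0.21 for SHOC2 (limma adjusted p = 0.983 for both).

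Of 22 other feedback and ETS genes, 19 were tested. DUSP16, a phosphatase of stress kinases, had 408 and 449 in the RBPJ knockdown, against 295 and 347 in the control. Both RBPJ knockdown libraries lay above the control, at a log2 fold change of 0.42 ± 0.15 (SE) (limma adjusted p = 0.983). SRF is the factor that binds serum response elements. It had 2069 and 1801 in the NOTCH1 knockdown, 1726 and 1751 in the RBPJ knockdown and 1660 and 1589 in the control. Its log2 fold change was 0.25 in the NOTCH1 knockdown (limma adjusted p = 0.660). In the RBPJ knockdown it was 0.098 (limma adjusted p = 0.989).

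Of 23 other immediate early genes, 18 were tested. FOSB, another FOS protein, had 30.2 and 48.8 in the NOTCH1 knockdown, 76.7 and 60.4 in the RBPJ knockdown and 54.5 and 120 in the control. The NOTCH1 knockdown lay below the control at a log2 fold change of -1.06 ± 0.39 (SE) (limma adjusted p = 0.566), and the control libraries themselves differed by more than 2-fold. PHLDA1 had 19.4 and 38.8 in the NOTCH1 knockdown, 36.9 and 46.2 in the RBPJ knockdown and 49.7 and 46.8 in the control. Its log2 fold change was -0.79 in the NOTCH1 knockdown (limma adjusted p = 0.710). In the RBPJ knockdown it was -0.22 (limma adjusted p = 0.995).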

How the data were processed

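The table the authors deposited holds 1 signal value per gene and library. As judged from the values, these are read counts divided by a scaling factor for each library: 79.8% to 80.9% of low values lie within 0.1 of a multiple of 1 step per library, too few to recover whole reads, so no count test was run. The tools named per the submitters' processing notes are DESeq2 and Salmon 0.14.1, and the build is ARS-UCD1.2; their order and roles, the annotation and the use of strand are not stated there. The 2551 of 17922 rows without a name were left out, and for 57 repeated symbols the row with the higher mean was kept. Of the 38 genes, 15 overlap another gene in the RefSeq annotation at hand, and for 5 (ARAF with SYN1, BRAF with NDUFB2, FGF2 with NUDT6, MAP2K1 with SNAPC5, MAPK3 with GDPD3) that gene is in the table, so their reads may be shared. Levels are not compared between genes, since no transcript lengths were used.

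The scale was log2(value + 1), with the authors' scaling kept; on it the fold change of a low gene comes out too small. Genes with a mean of at least 10 were fitted with limma 3.58.1 in R 4.3.3, as group means over all 6 libraries (3 residual degrees of freedom) with a variance trend on level. Adjusted p values cover all 12070 tested genes, and below 0.05 counted as called. The fit was tested on simulated counts. Nothing in the labels says that replicates came from separate collections, and the spread behind each p value may therefore be technical. The genes and lists were chosen with earlier results of these data known, so no test over a list was made. Genes were named by role: every member, and of the further genes at most the 2 per role and comparison with the smallest p. Members of unadjusted p below 0.05 and those not overlapping between groups were singled out after their values were seen. Figures were drawn with matplotlib 3.10.9.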

Additional observations from a re-analysis of the deposited data

How the results depend on the processing

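No member passed in any comparison under any of 16 alternatives. These changed the pseudocount (0.1 or 10), the filter (none, or 100), the scaling (quantile, or median of ratios), the moderation (robust, or no trend) or the libraries fitted (the groups compared alone, or 1 library omitted), or added a replicate block. With all else as reported, none passed at a threshold of 0.1 either. The smallest limma adjusted p of a member over these alternatives was 0.0626 for FGFR4 in the NOTCH1 knockdown, 0.220 for JUN in the RBPJ knockdown and 0.425 for FGFR3 between the knockdowns, all with the replicate block. The labels do not say that a replicate number marks a shared collection. The replicate 2 minus replicate 1 differences correlated between groups over 12070 genes at r = 0.167 to 0.213, which are genes and not independent replicates. With the replicate block limma called 138 genes in the NOTCH1 knockdown, 12 in the RBPJ knockdown and 15 between the knockdowns, in place of 0, 1 and 1, and no member was among them. Without the variance trend 0 genes were called in the RBPJ knockdown and 0 between the knockdowns, so that RBPJ itself was lost; the cause was not tested. Over omitted libraries the calls ran from 0 to 1 in the NOTCH1 knockdown (1 without control replicate 2), from 1 to 3 in the RBPJ knockdown (3 without control replicate 2) and from 0 to 3 between the knockdowns (0 without NOTCH1 knockdown replicate 1, 3 without RBPJ knockdown replicate 1). The members' median log2 fold change ran from -0.017 to 0.088 in the NOTCH1 knockdown and from 0.010 to 0.14 in the RBPJ knockdown, with 0.088 and 0.13 without control replicate 2 and 0.14 without RBPJ knockdown replicate 1. Between the knockdowns it ran from -0.060 to -0.021. The medians by role without single libraries were added after the data had been seen. Under median-of-ratios scaling and quantile normalization, tried for these counts after the data had been seen, 9 and 10 members did not overlap between groups in the NOTCH1 knockdown (background 36% and 35.7%), 13 and 12 in the RBPJ knockdown (32.1% and 31.8%) and 10 and 13 between the knockdowns (32.8% and 32.5%). Over the 16 alternatives 1584 values of single members stayed within the spread between replicates and 72 moved beyond it, all with a library omitted. Many of the 1584 could not move. The filter, the moderation, the block and the fit of the compared groups alone leave a log2 fold change as it was. So does omitting a library of the group not compared. With 2 libraries a group, intervals were widest for FOSL1, ETV5 and DUSP6.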

Other observations

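Several immediate early genes differed between the 2 libraries of each group in the same direction. In all 3 groups replicate 2 lay above replicate 1 for 10 of the 35 members, or 28.6%, where 18.2% of all tested genes did so. These included 5 of the 8 immediate early genes: FOS, JUN, JUNB, EGR1 and IER3. For EGR1 the log2 difference, replicate 2 minus replicate 1, was 0.76 in the NOTCH1 knockdown, 0.24 in the RBPJ knockdown and 0.54 in the control. For JUNB it was 0.42 in the NOTCH1 knockdown, 0.37 in the RBPJ knockdown and 0.40 in the control. Over the 8 genes the median difference was 0.28 in the NOTCH1 knockdown, 0.30 in the RBPJ knockdown and 0.30 in the control, against medians over all tested genes of -0.012, 0.0034 and -0.00010. Among the further genes of the pathway, 5 of 18 immediate early genes (27.8%) and 9 of 19 feedback and ETS genes (47.4%), DUSP1, DUSP5, DUSP7, DUSP9 and DUSP10 among them, also had replicate 2 above replicate 1 in all 3 groups, while none of the 6 feedback inhibitors of the main list did. The marker sums moved with the replicate number as well. The cumulus, granulosa and stroma list summed lower in replicate 2 in all 3 groups. It had 1168 against 1451 in the NOTCH1 knockdown, 1067 against 1254 in the RBPJ knockdown and 1235 against 1403 in the control. PTGS2 carried that fall, at 449 against 817, 343 against 543 and 504 against 791 in the same order. AMH and DCN rose in all 3 groups. The early embryo list also summed lower in replicate 2, with the largest falls in KRT8 and KRT18. GATA3 fell in all 3 groups as well, TFAP2C and SOX17 rose in all 3, and the others were mixed. The blood list, almost all HBA, summed higher. It had 1462 against 1135 in the NOTCH1 knockdown, 1454 against 1141 in the RBPJ knockdown and 1398 against 1076 in the control. The part of these markers in the pattern was not tested. The labels do not say what the replicate numbers stand for, and this pattern was noticed after the values had been seen and was not tested.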
